A study of Bos taurus and Ovis aries and Capra hircus with 27 samples.

Results

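The goat multi-finger C2H2 zinc finger proteins were 104 of the 22131 goat genes in the expression table. They were the gene models, not marked as a further copy of another model, whose predicted protein held at least 8 non-overlapping finger matches. A finger match was read as a pair of cysteines 2 to 4 residues apart, 12 residues of any kind, and a pair of histidines 3 to 5 residues apart. No expression value entered this choice. A protein sequence was at hand for 18216 models (82.3%), and the members made up 0.571% of those. A further 23 models with 8 or more matches carried a copy suffix and were left out.

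Messenger RNA of heart, liver and kidney was measured in 9 goat libraries, 3 per tissue, from untreated indigenous goats (Capra hircus) of about 3 years. Cattle and sheep libraries made up the rest of the 27 in the series and were not used here, since their gene identifiers are others. The study's methods describe unrelated adult females, each sampled for several tissues, and the sample labels give only a replicate number from 1 to 3. The level of a gene was given as FPKM, a fragment number corrected for transcript length and for how much of a library was mapped. The table held no read counts, so the depth behind each value was unknown and no counting interval could be given.

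A C2H2 finger is a short fold in which a zinc ion is held between cysteines and histidines, with a helix that reads a few bases of DNA. Proteins with long arrays of fingers form the largest family of DNA-binding factors in mammals. Many carry a KRAB domain ahead of the fingers, which recruits a corepressor and silences chromatin, among other places at transposable elements. Others carry a SCAN or a BTB domain, through which such proteins pair with each other. KRAB zinc finger genes have multiplied by local duplication, so that they often lie side by side.

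Predicted proteins of the members held 8 to 33 finger matches with a median of 11. Of the 104, 53 had 8 to 11 matches, 32 had 12 to 15 and 19 had 16 or more. GOAT_ENSBTAP00000048942, with a KRAB domain, held the most (33). A KRAB A box was found in 34 members (32.7%), against 83 of all 18216 models with a protein (0.456%). A SCAN domain was found in 6 members, 3 of which also had the KRAB box, and a BTB domain in 8. The other 59 had none of these domains by the residue patterns used. The KRAB cut fell between neighbouring scores, with 10 the lowest score counted and 9 the highest not counted. Only 56 of the 104 proteins start with methionine, so some models may lack their first part and a domain in it. This was not tested.

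**Figure D1:**
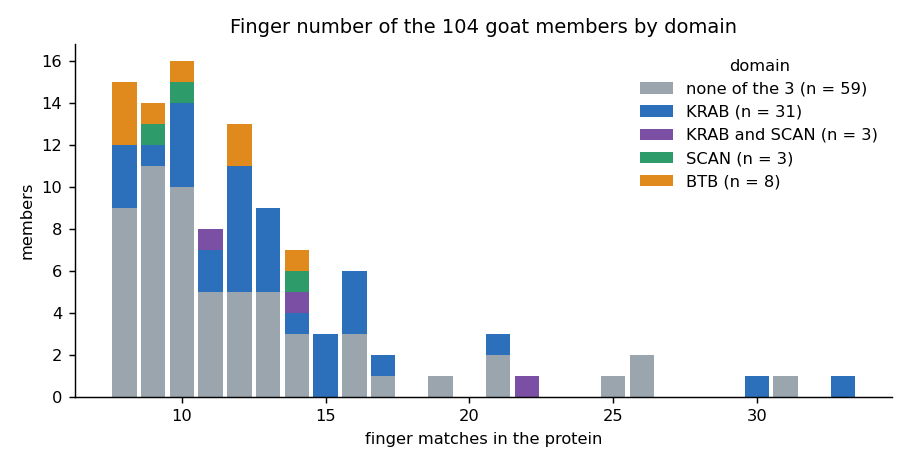
Number of finger matches per predicted protein (horizontal axis) and number of members (vertical axis), stacked by domain, for all 104 members. Most members have 8 to 16 matches, the KRAB members (blue) are spread over the whole range, and the 8 BTB members (orange) have at most 14.

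Not all matches looked like a classical finger. Of the 1315 matches in the members, 80.8% had the hydrophobic residues of the finger core at their usual places and a further 9.05% had them in a shifted place. No match had the usual core in 3 members, and 12 members had more shifted than usual matches. In arrays, fingers follow each other at a spacing of 7 residues: 875 of the 1211 neighbouring pairs did so (72.3%). The conserved linker TGEKP followed 55% of the matches in members with a KRAB box alone, 12.3% in members with a BTB domain and 16.5% in members with none of the domains. In the 3 members with a SCAN domain alone it followed 57.6%, and in the 3 with both 27.7%. The longest unbroken array had a median of 12 fingers in members with a KRAB box alone, 11 in those with KRAB and SCAN, 6 with SCAN alone, 5 with none of the domains and 4.5 with BTB.

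Members lay on 79 scaffolds of the assembly. Groups of members with at most 250 kb between neighbours numbered 9 and held 24 of the 104. The only members whose protein was at least 90% identical to another model over at least 50% of its length were GOAT_ENSBTAP00000011730 and GOAT_ENSP00000351530, which were 100% identical to each other, so that their reads could be split between them. Neither passed the filter for the tests.

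The files paired none of the identifiers with gene names, and the reference table at hand matched no goat identifier. Members are therefore called by their identifiers: 62 were built on a cattle protein, 27 on a human protein, and 15 were predicted models. For the same reason the tissue labels were not checked against defining genes of heart, liver, kidney, blood or leukocytes, and the part of other cell types in the values below was not tested. In bulk tissue, fewer cells of a type and less RNA per cell cannot be told apart.

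Zinc finger genes were mostly expressed in all tissues, and few reached high levels. The mean FPKM over the 9 libraries had a median of 2.47 among the members, with quartiles of 1.1 and 4.92, against a median of 2.34 over all goat genes, many of which were not expressed. Of the 104, 68 exceeded 0.5 FPKM, the level at which the study counts a gene as expressed, in all 9 libraries. In 6 members no library did so, and 1 of these (GOAT_ENSBTAP00000002795) was listed at 0 throughout. Genes above 0.5 FPKM in at least 3 libraries were tested, which left 96 members among 13634 genes. The median level of the tested members was 2.86 FPKM against 9.24 over all tested genes, and 10.4% of them had a mean above 10 FPKM against 47.7% of tested genes.

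Around the choice of 8 matches the levels were alike in range. The 15 members with exactly 8 matches had means of 0.343 to 21.9 FPKM with a median of 2.48. Just outside, 22 models with 7 matches had means of 0 to 16.5 FPKM with a median of 3.98. Within the family, number of matches and level were only weakly related (Spearman's rho −0.115 over 104 members, which share their libraries), as were protein length and level (rho −0.18).

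More members exceeded 0.5 FPKM in kidney than in heart or liver. Above 0.5 FPKM were 81, 89 and 90 members in the heart libraries, 78, 83 and 85 in liver and 93, 94 and 97 in kidney. Heart had a mean of 86.7 ± 4.93, liver of 82.0 ± 3.61 and kidney of 94.7 ± 2.08 members (SD, n = 3). Every kidney library thus lay above every heart and liver library, while heart and liver overlapped. The lead of kidney depended on the level chosen. Above 0.1 FPKM the mean was 98.0 members in kidney, 98.0 in heart and 96.3 in liver. Above 1 FPKM it was 88.0, 71.0 and 67.0. Over all goat genes the share above 0.5 FPKM was also highest in kidney, at 57.7% ± 0.7, against 53.3% ± 0.416 in heart and 52.8% ± 0.173 in liver (SD, n = 3).

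**Figure D2:**
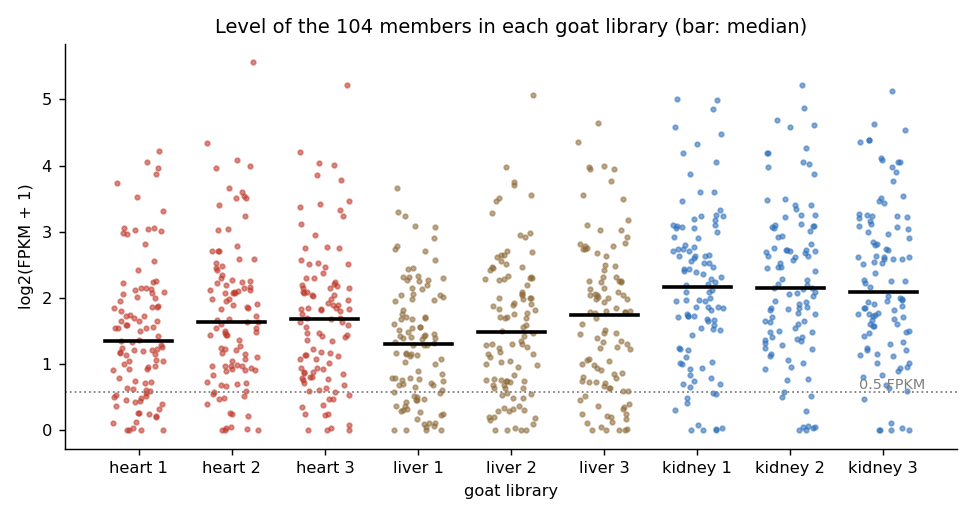
Level of each of the 104 members, as log2(FPKM + 1), in the 9 goat libraries, with 1 point per member and a bar at the median. The medians of the kidney libraries (3.29 to 3.47 FPKM) lie above those of heart (1.54 to 2.21 FPKM) and liver (1.47 to 2.34 FPKM), and replicate 1 has the lowest median in heart and in liver.

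The median level of a member was 3.4 ± 0.0945 FPKM for kidney, 1.96 ± 0.364 for heart and 1.87 ± 0.439 for liver (SD, n = 3). All members together took 0.0918% ± 0.00685 of the summed FPKM in kidney, 0.0496% ± 0.0109 in liver and 0.0417% ± 0.00648 in heart. The highest tissue mean was that of kidney for 82 members (78.8%), of heart for 14 and of liver for 8. The 14 include GOAT_ENSBTAP00000002795, which was listed at 0 throughout and so has no highest tissue. The same shares over all goat genes were not taken, so these counts cannot be read as particular to the members. FPKM is a relative value: where a few very abundant transcripts take up much of a library, all others are lowered. The sums of FPKM ran from 574638 to 828807 per library, and the median gene stood higher in kidney than in heart and liver before any scaling. For each pair of tissues, the counts of called members are therefore also given on values rescaled per library. There the median ratio of a gene to its geometric mean over all libraries was the same in each (median ratio scaling). After this scaling, kidney had a mean of 92.0 members above 0.5 FPKM, heart of 89.0 and liver of 86.3. Other ratios and counts below are on FPKM as deposited unless a scaling is named.

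Between tissues, levels differed moderately. Among the 68 members expressed in all libraries, the highest tissue mean was 1.09 to 10.6 times the lowest, with a median of 2.46. The same median was 2.82 over the 9641 goat genes expressed in all libraries. A ratio over 4 was found in 10.3% of these members and in 31.7% of these genes, and a ratio under 2 in 27.9% and 24.9%. The widest ratio was that of GOAT_ENSBTAP00000027448, which holds 11 fingers in an unbroken row. The coefficient of variation between replicates had a median of 18.5%.

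Tissue differences were tested with limma on log2(FPKM + 1) over all 13634 genes, with adjusted p-values of 0.05 or below called. Of the 96 tested members, 16 were called in none of the comparisons (16.7%, against 13.7% of tested genes) and 10 in all 3 (10.4%, against 16.4%). The comparisons share libraries, so their counts are not independent of each other.

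By the number of members called, heart and liver differed least with FPKM as deposited. After median ratio scaling liver and kidney did, with 33 members called against 35. The comparison called 22 of the 96 members (22.9%), where the background over all tested genes was 49.2%. Higher in heart were 16 members (16.7%, background 29.6%) and higher in liver were 6 (6.25%, background 19.6%). The median log2 difference was 0.03 over members and 0.10 over all genes, and its sign over members turned under each of the 3 other scalings. After median ratio scaling, 35 members were called (background 53.8%), 14 higher in heart (background 27.0%) and 21 higher in liver (background 26.8%). With equal sums of FPKM, 12 were higher in heart (12.5%, background 20.5%) and 21 in liver (21.9%, background 29.5%). Quantile normalization gave 18 (18.8%, background 29.5%) and 12 (12.5%, background 22.8%). Called in the same direction under all 4 scalings were 12 members higher in heart (12.5%, background 20.5%) and 6 higher in liver (6.25%, background 19.4%).

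Kidney stood above heart for most members. The comparison called 67 of the 96 (69.8%, background 63.2%), of which 63 were higher in kidney (65.6%, background 45.3%) and 4 higher in heart (4.17%, background 17.9%). The median log2 difference, heart minus kidney, was −0.68 over members and −0.55 over all genes. Median ratio scaling took the median of all genes to −0.04 and that of the members to −0.23. It called 45 members (background 58.0%), 32 higher in kidney (33.3%, background 29.1%) and 13 higher in heart (13.5%, background 29.0%). With equal sums of FPKM, 74 were higher in kidney (77.1%, background 55.6%) and 2 in heart (2.08%, background 14.2%). Quantile normalization gave 22 higher in kidney (22.9%, background 30.0%) and 15 in heart (15.6%, background 28%). For kidney over heart, the members thus lay well above the background with FPKM as deposited and with equal sums. In these settings the median over all genes also favoured kidney (−0.55 and −0.84). They lay near the background after median ratio scaling and below it after quantile normalization. Of the 63 members higher in kidney, 21 were called so under all 4 (21.9% of tested members, background 26.6%), and of the 4 higher in heart, 2 were (2.08%, background 14.1%).

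Kidney and liver gave a like count. The comparison called 70 of the 96 members (72.9%, background 65.0%), 67 higher in kidney (69.8%, background 51.6%) and 3 higher in liver (3.12%, background 13.4%). The median log2 difference, liver minus kidney, was −0.82 over members and −0.69 over all genes. After median ratio scaling, it was −0.13 over members and −0.01 over all genes. That scaling called 33 members (background 52.0%), of which 23 were higher in kidney (24.0%, background 25.3%) and 10 higher in liver (10.4%, background 26.6%). With equal sums, 66 were higher in kidney (68.8%, background 49.8%) and 3 in liver (3.12%, background 14%). After quantile normalization these were 23 (24.0%, background 30.8%) and 13 (13.5%, background 22.4%). Called higher in kidney under all 4 scalings were 19 of the 67 (19.8% of tested members, background 24.1%), and higher in liver all 3 (3.12%, background 13.3%).

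**Figure D3:**
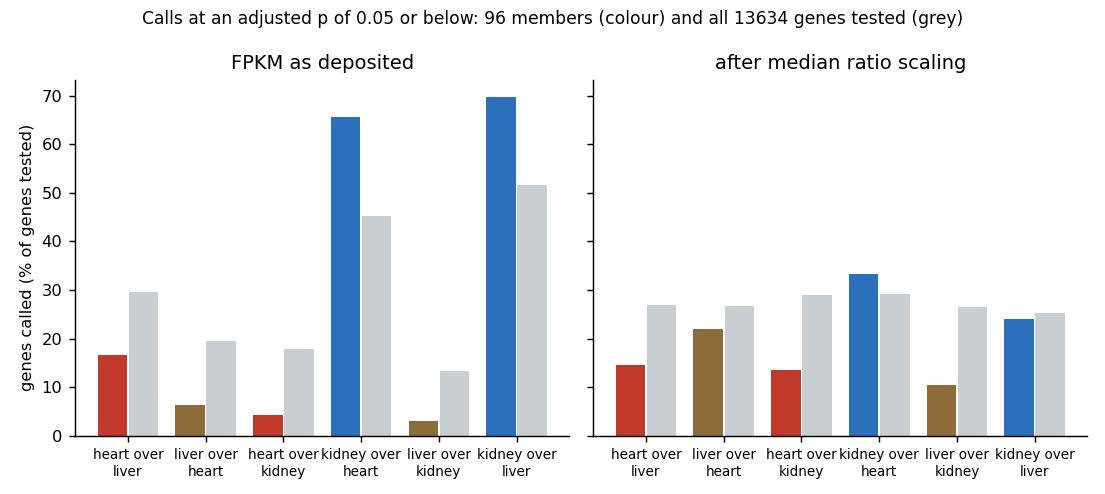
Share of genes called higher in the first-named tissue, as a percentage of the genes tested, for the 96 tested members (coloured bars) and for all 13634 tested genes (grey bars), with FPKM as deposited (left) and after median ratio scaling (right). Members exceed the background for kidney over heart (65.6% against 45.3%) and kidney over liver (69.8% against 51.6%) on the left. On the right they stand at 33.3% against 29.1% and at 24.0% against 25.3%.

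Set against both other tissues, kidney was called higher for 53 members (55.2%, background 34.2%). Heart was called higher than both for 3 members (background 14.5%) and liver for 1 (background 9.59%). Called lower than in both other tissues were 15 members in liver (15.6%, background 17.3%), 5 in heart (5.21%, background 11.3%) and 2 in kidney (2.08%, background 4.15%). The number of members elevated in kidney under all 4 scalings was 7 (7.29%, against 15.5% of tested genes), in heart 2 (2.08%, against 10.8%) and in liver 1 (1.04%, against 9.56%). The liver member, goat_GLEAN_10011985, entered the tests only through its liver libraries. Scaling thus moved most of the kidney calls, and few members were left as elevated in a single tissue whichever scaling was used.

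For comparison, of 291 models with 1 to 7 finger matches, 218 were tested. Kidney was called over heart in 60.1% of them and over liver in 67.9%, and after median ratio scaling in 38.5% and 34.9%. Heart was called over liver in 28.9%, liver over heart in 11%, heart over kidney in 13.8% and liver over kidney in 4.59%. The difference between both sets of models was not tested.

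The member with the highest mean, GOAT_ENSP00000376721, a protein with a BTB domain and 8 fingers, is encoded on scaffold 1183 (minus strand, 2383480 to 2576700). Its level was 17.7, 46.2 and 36.1 FPKM in heart, 2.26, 32.4 and 24.1 in liver and 4.76, 13.7 and 19.9 in kidney. Replicate 1 was the lowest in each tissue, and the tissues overlapped. Without regard to the replicate number no difference passed the test: heart minus liver was 1.19 ± 0.84 on the log2 scale (SE, adjusted p = 0.275) and heart minus kidney 1.41 ± 0.84 (adjusted p = 0.173). With the replicate number as a block, both differences passed, with adjusted p-values of 0.0377 and 0.0157. Liver minus kidney was 0.21 ± 0.84 (adjusted p = 0.841), and its sign turned when single libraries were left out. Leaving out liver replicate 1 alone also brought heart minus kidney past the threshold (adjusted p = 0.0365). Without replicate 1 of all tissues, heart and liver were both called over kidney (adjusted p = 0.00695 and 0.0497).

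A low replicate 1 was common in the family. In 34 of the 96 tested members (35.4%) replicate 1 was the lowest in all 3 tissues, which held for 23.9% of tested genes. The median ratio used for scaling, taken over all genes above 0 in every library, was also lowest in replicate 1 of each tissue. For replicate 1 it was 0.774 in heart, 0.648 in liver and 1.29 in kidney. Replicate 2 was never the lowest in all 3 tissues among members, and replicate 3 was so in 2. Without replicate 1 of all 3 tissues, a choice made after seeing the data, 21, 61 and 69 members were called for heart minus liver, heart minus kidney and liver minus kidney. The cause was not tested.

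The 3 members whose 9 values ran most alike to those of GOAT_ENSP00000376721 were goat_GLEAN_10002229 (Pearson's r 0.802), GOAT_ENSBTAP00000013542 with a SCAN domain (0.798) and GOAT_ENSBTAP00000037160 (0.76). All 3 were much lower. GOAT_ENSBTAP00000013542 stood at 3.39, 4.07 and 3.45 FPKM in heart, 1.87, 2.81 and 2.99 in liver and 2.63, 2.61 and 2.39 in kidney. None of the 3 was called in any comparison.

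Among the other members of high level, kidney was the highest tissue in each case. In goat_GLEAN_10018944, with 8 fingers, the level was 14.6, 15.9 and 15.4 FPKM in heart, 11.7, 14.7 and 19.5 in liver and 23.0, 36.3 and 34.0 in kidney. The kidney libraries stood apart from all others, with log2 differences of −0.95 ± 0.24 for heart minus kidney (adjusted p = 0.00626) and −0.98 ± 0.24 for liver minus kidney (adjusted p = 0.00539). Median ratio scaling ended both calls (adjusted p = 0.142 and 0.567).

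GOAT_ENSP00000264010 has 10 fingers and stood at 13.7, 14.6 and 13.5 FPKM in heart, 8.86, 10.8 and 12.6 in liver and 28.1, 28.3 and 23.8 in kidney. Its 3 tissues did not overlap. The differences from kidney were −0.89 ± 0.18 for heart (adjusted p = 0.00207) and −1.25 ± 0.18 for liver (adjusted p = 0.000281), and after median ratio scaling −0.23 (adjusted p = 0.217) and −0.40 (adjusted p = 0.0538).

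GOAT_ENSP00000368486 has 13 fingers and was measured at 7.28, 8.44 and 7.68 FPKM in heart, 8.48, 10 and 14.4 in liver and 21.3, 22.9 and 22.3 in kidney. Heart minus kidney was −1.40 ± 0.20 (adjusted p = 0.000301), a call that every scaling kept. Liver minus kidney, −0.98 ± 0.20 (adjusted p = 0.00234), was lost after median ratio scaling (−0.14, adjusted p = 0.436).

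In GOAT_ENSBTAP00000017903, a BTB member with 12 fingers, values were 8.92, 10.4 and 8.41 FPKM in heart, 5.53, 12 and 10.8 in liver and 31.1, 24.9 and 19.9 in kidney. The kidney libraries again lay above all others, with −1.34 ± 0.28 for heart minus kidney (adjusted p = 0.00257), which also held under every scaling. Liver minus kidney was −1.37 ± 0.28 (adjusted p = 0.00228), and median ratio scaling ended that call (−0.53, adjusted p = 0.123). GOAT_ENSBTAP00000050069, a short model of 284 residues with 9 fingers in a row, was measured at 12.3, 14.9 and 17.4 FPKM in heart, 7.55, 10.4 and 14.5 in liver and 30.7, 23.6 and 15.7 in kidney. Heart overlapped with both other tissues, and liver lay below kidney in all libraries. Liver minus kidney was −1.04 ± 0.30 (adjusted p = 0.0121), a call that was lost after median ratio scaling (adjusted p = 0.56), after quantile normalization (adjusted p = 0.222) and without replicate 1 of all tissues (adjusted p = 0.0863).

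Heart was called over both other tissues in 3 members. GOAT_ENSP00000377967 has 13 fingers within 425 residues on scaffold 1620 (plus strand, 228589 to 229863), and none of the domains searched. Its level was 15.6, 19.2 and 15.1 FPKM in heart, 2.98, 3.02 and 3.41 in liver and 5.57, 5.54 and 6.01 in kidney. No tissues overlapped, and heart was higher than liver by 2.08 ± 0.17 on the log2 scale (adjusted p = 6.19e-06) and than kidney by 1.39 ± 0.17 (adjusted p = 8.94e-05).

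GOAT_ENSBTAP00000053372, with 10 fingers, showed the same order for heart. It stood at 10.5, 11.1 and 10.1 FPKM in heart, 3.6, 3.91 and 5.42 in liver and 3.27, 2.39 and 2.41 in kidney. Heart minus kidney was 1.66 ± 0.19 (adjusted p = 7.03e-05) and heart minus liver 1.14 ± 0.19 (adjusted p = 0.000877). Liver was also called over kidney, by 0.52 ± 0.19 (adjusted p = 0.0372), a call that was lost when any of 6 libraries was left out, with adjusted p-values of up to 0.117.

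The third, GOAT_ENSP00000417899, an 8-finger model, was measured at 2.14, 5.05 and 2.9 FPKM in heart, 0.256, 0.237 and 0.19 in liver and 1.32, 1.82 and 1.2 in kidney. Heart exceeded liver by 1.77 ± 0.24 (adjusted p = 0.000201) and kidney by 0.79 ± 0.24 (adjusted p = 0.0156). With equal sums of FPKM the second difference missed the threshold (adjusted p = 0.0701).

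**Figure D4:**
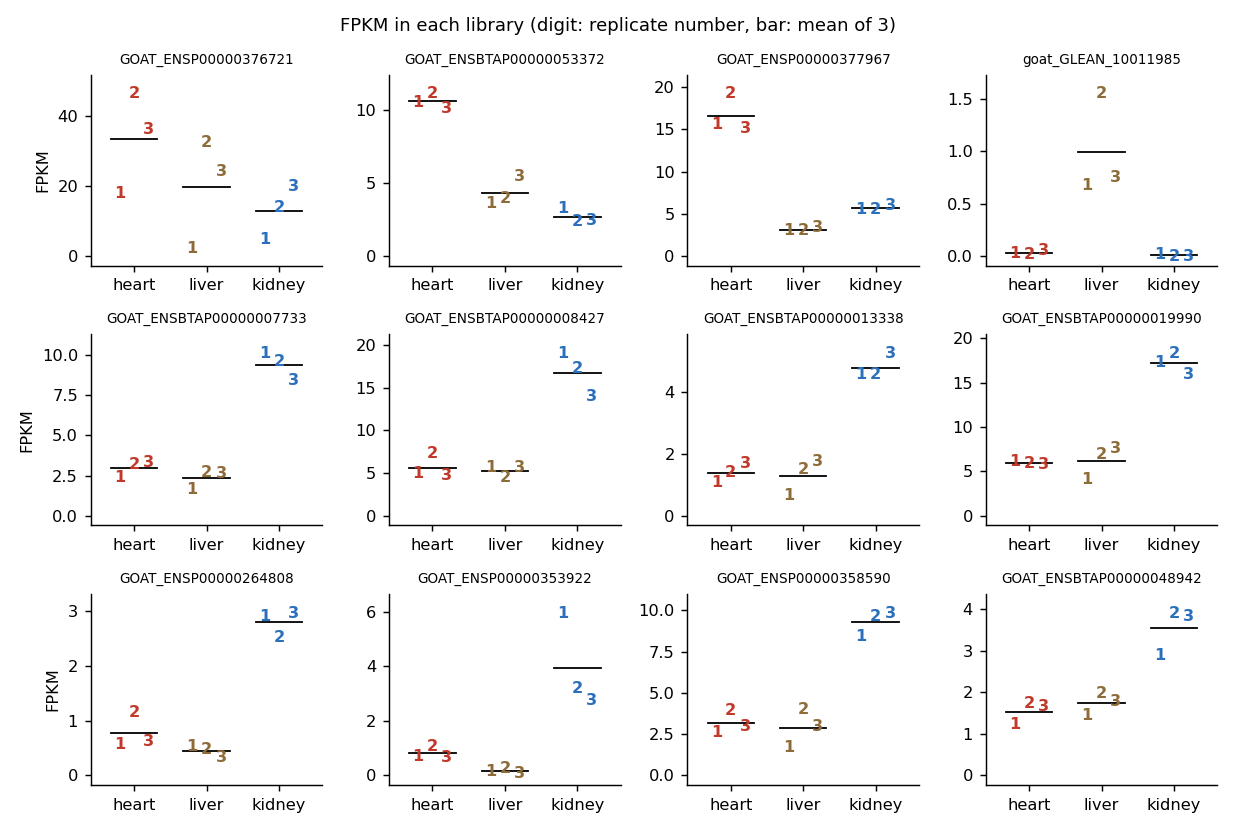
FPKM of 12 members in each goat library, by tissue, where each digit is the replicate number at its value and the bar is the mean of 3 libraries. The first panel is the member with the highest mean, with replicate 1 lowest in every tissue, then come the 2 members elevated in heart, the 1 in liver and the 7 in kidney under all scalings, and last the member with 33 fingers.

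Several members were low in liver. GOAT_ENSBTAP00000011113, a KRAB member with 12 fingers in a row, stood at 3.16, 3.45 and 3.09 FPKM in heart and 2.63, 2.65 and 2.67 in kidney, but at 0.353, 0.287 and 0.373 in liver. Heart minus liver was 1.66 ± 0.14 (adjusted p = 7.92e-06), and heart and kidney were not told apart (0.21 ± 0.14, adjusted p = 0.199). GOAT_ENSBTAP00000049089, with 25 fingers, was at 6.93, 7.12 and 6.76 FPKM in heart, 8.18, 5.75 and 7.27 in kidney, and only 1.69, 1.39 and 1.47 in liver (heart minus liver 1.66 ± 0.17, adjusted p = 3.89e-05).

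With FPKM as deposited, 7 members were at or below 0.5 FPKM in every liver library and above it in every other library. They made up 7.29% of tested members, against 2.17% of tested genes. The same pattern was found in 1 member for heart (1.04%, against 1.69%) and in none for kidney (against 0.462%). Tested members lay nearer to this level, with a median of 2.86 FPKM against 9.24 over tested genes. By the fit, liver was called below both other tissues in 15.6% of tested members, against 17.3% of tested genes. Expression above 0.5 FPKM in every library of a single tissue and in no other library was found in 1 member, in liver (1.04%, against 2.51%). It was found in none in heart (against 2.07%) or kidney (against 3.61%). The liver member was goat_GLEAN_10011985, measured at 0.674, 1.55 and 0.756 FPKM in liver, 0.02, 0.018 and 0.0537 in heart, and 0.0171, 0 and 0 in kidney. Its liver libraries stood above all others. It passed the filter on low values through these liver libraries alone, so its calls over heart and kidney are no independent evidence. They enter the counts of members called higher in liver above, but their sizes and p-values are not given. The model is a weak case of the family, since of its 8 matches only 2 had the usual core and no 2 followed each other at the spacing of an array.

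Liver was called over heart in 5 other members. In GOAT_ENSBTAP00000018782 the libraries of both tissues overlapped (−0.78 ± 0.28, adjusted p = 0.0414). The 4 whose libraries did not overlap are described here. GOAT_ENSP00000268154, with 10 fingers in a row, was measured at 1.0, 0.889 and 1.27 FPKM in heart, 3.82, 3.81 and 3.99 in liver and 5.7, 7.5 and 10.1 in kidney. Heart was the lowest tissue, at −1.25 ± 0.21 against liver (adjusted p = 0.000781) and −2.07 ± 0.21 against kidney (adjusted p = 2.79e-05). The same order was seen in goat_GLEAN_10008167, at 2.0, 2.97 and 2.78 FPKM in heart, 4.0, 5.27 and 6.58 in liver and 6.95, 9.2 and 10.4 in kidney. Its heart minus liver difference (−0.80 ± 0.23, adjusted p = 0.0154) was lost without heart replicate 1 or liver replicate 3 (adjusted p = 0.0564 and 0.0505).

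Smaller differences were found in the BTB member GOAT_ENSP00000356375, which stood at 1.3, 1.81 and 1.54 FPKM in heart and 2.2, 3.89 and 3.75 in liver (−0.73 ± 0.20, adjusted p = 0.0149). That call was lost without heart replicate 1 or liver replicate 2 (adjusted p = 0.0505 and 0.0587). In the KRAB member GOAT_ENSP00000415772, heart held 0.154, 0.167 and 0.387 FPKM and liver 1.23, 0.721 and 0.657 (−0.59 ± 0.17, adjusted p = 0.0176). Leaving out heart replicate 1, heart replicate 2 or liver replicate 1 ended that call, with adjusted p-values of 0.0511 to 0.0563. No heart library of this member exceeded 0.5 FPKM, and it passed the filter on low values only with its liver libraries. The call is therefore no independent evidence.

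Kidney-elevated members that every scaling kept included KRAB, BTB and plain finger proteins. GOAT_ENSBTAP00000008427, with a KRAB box and 13 fingers, was the highest of all KRAB members, at 4.89, 7.28 and 4.71 FPKM in heart, 5.66, 4.47 and 5.66 in liver and 19.0, 17.2 and 14 in kidney. Heart and liver overlapped, and both lay below kidney, with −1.43 ± 0.21 for heart minus kidney (adjusted p = 0.000322) and −1.50 ± 0.21 for liver minus kidney (adjusted p = 0.000243). GOAT_ENSBTAP00000007733, a KRAB member with 10 fingers in a row, rose from 2.36, 3.2 and 3.28 FPKM in heart and 1.65, 2.7 and 2.61 in liver to 10.1, 9.61 and 8.43 in kidney (liver minus kidney −1.66 ± 0.20, adjusted p = 8.68e-05).

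GOAT_ENSP00000353922, with 11 fingers, had the lowest liver values of this set. It was measured at 0.682, 1.07 and 0.637 FPKM in heart, 0.124, 0.247 and 0.0791 in liver and 5.96, 3.18 and 2.74 in kidney. Liver minus kidney was −2.06 ± 0.24 (adjusted p = 7.08e-05) and heart minus kidney −1.42 ± 0.24 (adjusted p = 0.000671). The other 4, which were named after their values were seen, were GOAT_ENSBTAP00000013338 (BTB), GOAT_ENSBTAP00000019990, GOAT_ENSP00000264808 and GOAT_ENSP00000358590, and in each of them all kidney libraries lay above every heart and liver library.

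Among the other members with large differences from kidney, GOAT_ENSBTAP00000027448 was at 1.93, 3.84 and 3.56 FPKM in heart, 0.708, 0.782 and 1.01 in liver and 11.1, 7.44 and 7.99 in kidney, the widest spread between tissues among members expressed in all libraries. Its liver minus kidney difference of −2.41 ± 0.24 (adjusted p = 2.62e-05) was called under every scaling, while heart minus kidney, −1.28 ± 0.24 (adjusted p = 0.00124), was not. GOAT_ENSBTAP00000041539, with 21 fingers, stood at 1.24, 2.04 and 2.1 FPKM in heart, 1.63, 3.02 and 3.43 in liver and 5.67, 7.54 and 6.96 in kidney. Heart minus kidney was −1.48 ± 0.24 (adjusted p = 0.00059) and was called under every scaling. The KRAB member goat_GLEAN_10009341 held 3.36, 3.67 and 4.51 FPKM in heart, 1.95, 1.84 and 1.07 in liver and 8.51, 7.59 and 6.53 in kidney, and its liver minus kidney difference of −1.72 ± 0.20 (adjusted p = 7.97e-05) was called under every scaling.

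The member with 33 fingers, GOAT_ENSBTAP00000048942, was highest in kidney, at a low level. It stood at 1.22, 1.73 and 1.65 FPKM in heart, 1.44, 1.96 and 1.77 in liver and 2.88, 3.9 and 3.83 in kidney. Kidney lay above every other library, with differences of −0.84 ± 0.17 for heart (adjusted p = 0.00239) and −0.73 ± 0.17 for liver (adjusted p = 0.00502). Both calls ended after median ratio scaling (adjusted p = 0.0651 and 0.64), and the sign for liver turned after quantile normalization.

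BTB members had the higher levels, with a median mean of 8.15 FPKM over 8 members, against 2.22 over the 34 KRAB members, 1.96 over the 6 with a SCAN domain and 2.6 over the 59 with none of the domains. With FPKM as deposited, kidney was the highest tissue in 27 KRAB members, 7 BTB members and 46 members without a domain. This share was not taken over all goat genes. Of the tested members, 17 of 33 with KRAB were called higher in kidney than in heart, 7 of 8 with BTB and 37 of 52 without a domain, where 45.3% of all genes tested were. Against liver the counts were 22, 5 and 38, and the share over all genes 51.6%. After median ratio scaling, 4 KRAB members were called higher in kidney than in heart and 4 higher in heart, against 4 and 0 with BTB and 23 and 8 without a domain (29.1% and 29.0% over all genes). The counts for kidney over liver fell to 9, 2 and 11 (25.3% over all genes).

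Median log2 differences of heart minus kidney were −0.44 for KRAB members, −1.04 for BTB members and −0.87 for members with none of the domains. After median ratio scaling they were −0.06, −0.43 and −0.29. For liver minus kidney the medians were −0.83, −0.83 and −0.81, and after scaling −0.11, −0.09 and −0.14. By finger number (8 to 11, 12 to 15 and 16 or more), heart minus kidney had medians of −0.69, −0.61 and −0.67, and −0.17, −0.23 and −0.33 after scaling. The same classes had medians of −0.77, −0.84 and −0.89 in liver minus kidney, and −0.09, −0.14 and −0.30 after scaling. The differences between these classes were not tested.

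**Figure D5:**
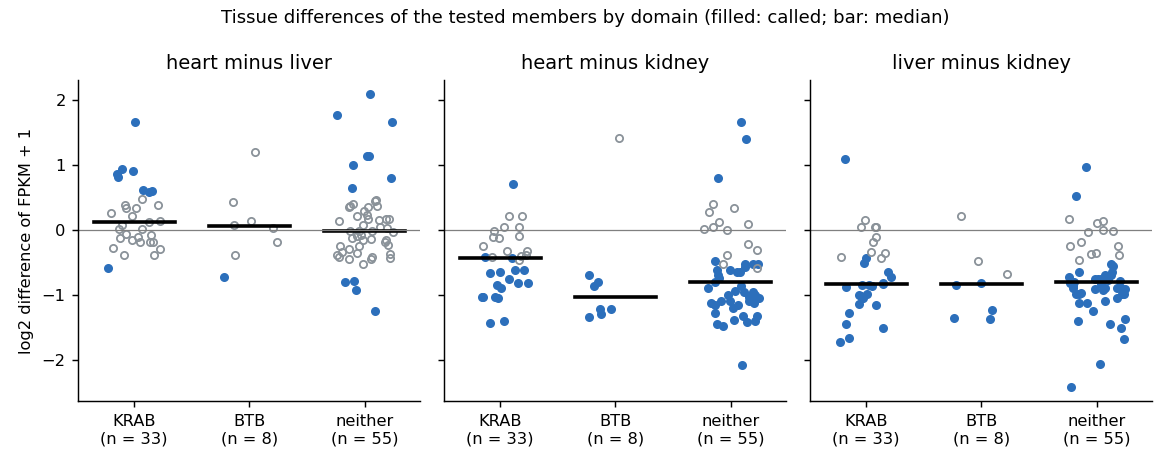
Log2 difference of FPKM + 1 between tissues for each of the 96 tested members (values above 0 are higher in the first-named tissue), by domain, with filled points for called members, open points for members that were not called, and a bar at the median. KRAB includes members that also hold a SCAN domain. Medians of heart minus kidney are −0.44 for the 33 KRAB members and −1.04 for the 8 BTB members, and those of liver minus kidney lie close to each other.

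Neighbouring members did not always run together. The largest groups of neighbours held 4 members each. On scaffold 351 (1588251 to 1719148), all 4 were highest in kidney, with means over the 9 libraries of 2.46 to 4.19 FPKM and pairwise Pearson's r of 0.276 to 0.928. On scaffold 534 (131654 to 369990), the 4 members had means of 0.843 to 2.18 FPKM and r from −0.543 to 0.855, and their highest tissue was kidney in 2, liver in 1 and heart in 1. The liver-high neighbour was GOAT_ENSBTAP00000050759, a KRAB member with 13 fingers in a row.

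GOAT_ENSBTAP00000050759 was measured at 1.69, 2.75 and 2.37 FPKM in heart, 2.28, 3.57 and 3.96 in liver and 0.623, 1.08 and 1.33 in kidney. It was 1 of the 2 members called lower in kidney than in both other tissues. Liver minus kidney was 1.08 ± 0.23 (adjusted p = 0.00256), and every scaling kept it. Heart minus kidney was 0.70 ± 0.23 (adjusted p = 0.0223), which was lost with equal sums of FPKM (adjusted p = 0.101) and without heart replicate 2, heart replicate 3 or kidney replicate 1 (adjusted p = 0.0609 to 0.078).

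Over all 9 groups of neighbours, the 23 pairs had a median r of 0.713, and the 5253 pairs of members with a defined r had 0.596. These correlations are over the 9 goat libraries, which all members share, so that the low replicate 1 and the kidney libraries enter each of them.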

How the data were processed

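The authors filtered the reads of strand-specific (dUTP) libraries, mapped the goat reads with TopHat to the goat genome and quantified genes with Cufflinks 2.2.1, per the study's methods. The submitters' processing notes list UMD3.1, a cattle build, for all samples. The authors deposited log2 values, log2(FPKM + 1), per gene and library, with replicates not pooled. These were turned back into FPKM by undoing the logarithm and subtracting 1. The deposited goat protein file, whose last entry was cut off, names no build. It gave finger matches, domains and scaffold positions, and no expression value. KRAB, SCAN and BTB domains were scored by agreement with consensus residues (at least 10 of 18, 15 of 31 and 10 of 16).

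Groups and replicate numbers came from the sample titles. The goat liver and kidney columns also matched the sample descriptions. The goat heart columns bore other names and were matched by tissue and number alone. According to the paper, the goat heart samples were also deposited under another set of sample entries. The fit used limma 3.58.1 (R 4.3.3) on goat genes that exceeded 0.5 FPKM in 3 or more of the 9 libraries. It had a mean per tissue and moderated variances with a mean-variance trend, and p-values were adjusted after Benjamini and Hochberg over all 13634 genes, with a threshold of 0.05. The fit was tested on simulated data. Proteins were compared with blastp. Python 3.11.15 with pandas 2.3.3 was used otherwise. Members and lists were chosen with earlier results of these data known.

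The deviations of same-numbered libraries from their tissue means correlated at 0.146 to 0.472 in all pairs, against −0.417 to 0.134 between other numbers. Deviations from a tissue mean cancel out, so a positive correlation at the same number lowers those between other numbers. The study's methods describe several tissues of each animal. The labels do not say whether a number stands for the same animal in each tissue, and this was not tested.

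Named were the 6 members with the highest mean, for each comparison and direction the 5 with the largest difference among called members whose libraries do not overlap, the member with the most fingers, the largest groups of neighbours, and the 3 members most like the highest. A planned list of well-known zinc finger proteins, their KRAB partner proteins and marker genes of tissues and cell types needed gene names and was not analysed here. Since positions and proteins come from the submitters' gene models, sequences are not printed.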

Additional observations from a re-analysis of the deposited data

How the results depend on the processing

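Counts of called members were 22, 67 and 70 for heart minus liver, heart minus kidney and liver minus kidney. Leaving out 1 library at a time, or replicate 1 of all tissues, gave 18 to 24, 56 to 71 and 62 to 72. With the replicate block the counts were 26, 67 and 73. Among the 48 differences of named members followed over the settings, the block changed only the 2 of GOAT_ENSP00000376721 given above. Of the 63 members called higher in kidney than in heart, 61 were also called so with the block. Median ratio scaling gave 35 and 33 for heart minus liver and liver minus kidney, quantile normalization 37 and 36 for heart minus kidney and liver minus kidney, and the study's filter (above 0.5 FPKM in over 80% of libraries, which tests fewer members) 14 for heart minus liver. With a minimum log2 difference of 1, calls fell to 7, 34 and 26 of the 96 members. Over the 13634 tested genes, 4817, 6320 and 6334 were called so, a larger share in each comparison. Members with 8 or more matches holding a finger core, a choice made after seeing the data, gave 19, 54 and 57 of 77.

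The median log2 difference over members was −0.26 for heart minus liver with equal sums of FPKM. For heart minus kidney it was −0.23 after median ratio scaling, −0.94 with equal sums, −0.10 after quantile normalization and −0.96 with a pseudocount of 0.1. For liver minus kidney it was −0.13 after median ratio scaling, −0.09 after quantile normalization and −1.04 with a pseudocount of 0.1. Without single libraries the medians ran from −0.11 to 0.15, −0.77 to −0.60 and −0.87 to −0.71. The causes were not tested.

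Reversals among named members were all of differences that did not pass the test, other than liver minus kidney in GOAT_ENSBTAP00000048942 (0.03 after quantile normalization). Heart minus liver turned to −0.18, −0.41 and −0.03 in goat_GLEAN_10018944 and to −0.16, −0.39 and −0.01 in GOAT_ENSBTAP00000017903 under median ratio scaling, equal sums and quantile normalization. It turned to −0.07 in GOAT_ENSP00000264010 with equal sums, and heart minus kidney to 0.07 in GOAT_ENSBTAP00000050069 after median ratio scaling. Over settings that leave out libraries, liver minus kidney ran from −0.42 to 1.26 in GOAT_ENSP00000376721, and heart minus liver from −0.14 to 0.21 in goat_GLEAN_10018944 and from −0.28 to 0.22 in GOAT_ENSBTAP00000017903. Of 48 differences of named members, 25 kept direction and side of the threshold under every setting run. Without counts, depth could not be weighed, and low members are the least certain.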
